A study of Mus musculus with 13 samples.

Results

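The genes of voltage-gated and related channels for sodium, chloride, calcium and potassium were followed in the mouse tibialis anterior, a mostly fast-twitch leg muscle. They were chosen by symbol: the stems Scn, Clcn, Cacna, Cacnb, Cacng and Kcn matched 77 of the 13846 genes listed, 9 for sodium, 7 for chloride, 18 for calcium and 43 for potassium. The RNA came from 4 mdxTG, 4 mdx and 5 WT libraries. The mdx mouse carries a mutated dystrophin gene (Dmd) and models Duchenne muscular dystrophy; mdxTG mice are mdx mice with a transgene for sarcospan (Sspn), a membrane protein of the dystrophin-associated complex, so they carry the Dmd mutation too; WT mice carry neither. Age, sex, background strain and the promoter and species of the transgene were not stated. Nothing in the labels ties a library to 1 animal. The p-values below therefore reflect variation among the libraries at hand, which could be technical.

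A muscle fibre fires when sodium channels open, and chloride and potassium channels then hold and restore the resting potential. The action potential runs into the transverse tubules, where the calcium channel Cacna1s serves as voltage sensor and triggers calcium release from the sarcoplasmic reticulum. Each pore-forming subunit works with smaller subunits that set its trafficking and gating. Adult, immature and denervated fibres use different members of these families, and nerve, vessel and immune cells in the tissue have channels of their own.

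The promoters of 4 genes are printed because these genes carry the rises and falls described below. Kcnn4 and Kcnn3, potassium channels opened by calcium, were among the 3 highest log2 folds in mdxTG against WT. Scn4b, a sodium channel subunit, and Clcn1, the chloride channel of the fibre membrane, were lower in mdxTG than in mdx and in WT. Each sequence is from RefSeq (GRCm38.p6, plus strand, 300 bases, 250 before and 50 after the start of the gene in RefSeq), with capitals marking E-boxes (CANNTG), the motif that myogenic factors bind.
Kcnn4, chr7:24370013-24370312: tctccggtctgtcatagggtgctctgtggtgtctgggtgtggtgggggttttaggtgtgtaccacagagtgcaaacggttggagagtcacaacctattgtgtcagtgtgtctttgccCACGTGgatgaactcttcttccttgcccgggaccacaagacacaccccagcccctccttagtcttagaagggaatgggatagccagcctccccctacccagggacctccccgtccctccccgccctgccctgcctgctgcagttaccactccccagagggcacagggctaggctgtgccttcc
Kcnn3, chr3:89519914-89520213: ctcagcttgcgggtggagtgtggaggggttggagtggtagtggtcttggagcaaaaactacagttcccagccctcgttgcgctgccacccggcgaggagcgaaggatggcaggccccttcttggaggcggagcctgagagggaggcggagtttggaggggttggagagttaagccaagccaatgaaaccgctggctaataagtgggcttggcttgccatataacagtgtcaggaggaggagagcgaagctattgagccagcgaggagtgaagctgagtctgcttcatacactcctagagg
Scn4b, chr9:45138374-45138673: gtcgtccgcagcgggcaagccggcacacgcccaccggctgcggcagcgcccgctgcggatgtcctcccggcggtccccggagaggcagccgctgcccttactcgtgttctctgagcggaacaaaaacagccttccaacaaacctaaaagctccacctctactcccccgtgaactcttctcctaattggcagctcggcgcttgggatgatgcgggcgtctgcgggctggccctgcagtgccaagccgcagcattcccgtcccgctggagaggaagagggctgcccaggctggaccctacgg
Clcn1, chr6:42286435-42286734: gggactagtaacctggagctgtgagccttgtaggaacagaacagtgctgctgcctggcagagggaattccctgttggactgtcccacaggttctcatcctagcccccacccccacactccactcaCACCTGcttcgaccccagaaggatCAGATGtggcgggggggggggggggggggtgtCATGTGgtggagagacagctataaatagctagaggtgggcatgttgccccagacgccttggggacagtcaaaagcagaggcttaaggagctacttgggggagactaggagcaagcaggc
For Scn4b that start is base 45138624, which lies 229 bases inside the gene as given below from GENCODE; for the others both starts are the same. The Kcnn4 window held 1 E-box, the Clcn1 window 3, and the Kcnn3 and Scn4b windows 0. Searched on both strands, an E-box occurred in 75.6% of the 82 promoters that matched 55 of the channel genes and in 72.3% of all 32851 promoters of this length. The AP-1 motif TGANTCA was in 2.44% of the promoters of channel genes and 7.81% of all, and the CRE motif TGACGTCA in 2.44% and 1.79%. None of the 4 printed windows held either of them, and a stretch of sequence could count for more than 1 motif. A match says only that the letters are present.

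Levels are given as normalized CPM, the reads of a gene per M of an effective library size set by the authors. The libraries held 53.26 to 68.44 M reads, of which 41.74 to 53.87 M fell on the listed genes, and 3 reads corresponded to 0.0504 to 0.0818 normalized CPM. Sspn averaged 1738 ± 185 normalized CPM in mdxTG, 114 ± 4.903 in mdx and 118 ± 13.3 in WT (SD, n = 4, 4 and 5, as for all means below). Dmd averaged 59.2 ± 3.69 normalized CPM in mdxTG, 52.6 ± 4.44 in mdx and 223 ± 55.4 in WT. WT replicate 1 stood apart: its slow fibre markers summed to 6760 normalized CPM, against 185 to 379 in the other WT libraries, and its Schwann cell markers to 405, the highest of all libraries. Results that rest on it are also given without it. Identifiers in the labels set the WT libraries apart from the others, and if they mark cohorts, cohort and genotype cannot be told apart in comparisons with WT. Of 10 muscle fibre markers, 4 fell in mdx and 6 in mdxTG against WT; in mdxTG against mdx 3 fell and Myh2 rose. Regenerating fibre markers and macrophage markers rose in mdx against WT (12 of 12 each). Exons of 25 channel genes overlap exons of a gene on the opposite strand, and the strand setting of the counting was not stated, so their reads may be shared. In whole muscle, fewer cells of a type and less RNA per cell cannot be told apart.

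The genotypes were compared with limma on log2 of the normalized CPM plus 0.5, and a gene is said to rise or fall where its p, adjusted over all 13831 genes tested, was under 0.05. Of the 77 channel genes, 76 reached the filter of 0.5 normalized CPM in 4 libraries, 64 of them in every library. Kcnd3, Kcng1 and Kcnv2 would not have reached it without the mdxTG libraries, where they were highest. They are in the counts below, as 2 of the rises in mdxTG against mdx and 3 of those in mdxTG against WT, and their values are given without a test. The 3 comparisons share libraries, each genotype entering 2 of them, so their values stand side by side and are not independent evidence.

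Between mdx and WT, 17 channel genes rose in mdx and 23 fell, 22.4% and 30.3% of those tested, with 18.5% and 16.1% of all genes. Between mdxTG and mdx, 18 rose in mdxTG and 15 fell, 23.7% and 19.7%, with 15.4% and 12.9% of all genes. Between mdxTG and WT, 26 rose in mdxTG and 23 fell, 34.2% and 30.3%, with 28.7% and 25.3% of all genes. Under the authors' scaling, the shares of channel genes were above those of all genes in both directions in each comparison, and no test was made of that difference. The median log2 fold of the channel genes was -0.06, 0.13 and -0.03 in the 3 comparisons, and that of all genes -0.01, -0.0004 and 0.02.

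These counts rest on the authors' scaling factors, which were 1.107 to 1.191 in mdxTG, 1.006 to 1.068 in mdx and 0.831 to 0.932 in WT. In plain CPM, without the factors, the median log2 fold of all genes moved to 0.20, 0.13 and 0.36, and more channel genes counted as higher. In mdx against WT, 27 were then higher and 12 lower, 35.5% and 15.8% of those tested, with 37.2% and 5.32% of all genes. In mdxTG against mdx, 26 were higher and 7 lower, 34.2% and 9.21%, with 25.3% and 7.09% of all genes. In mdxTG against WT, 35 were higher and 12 lower, 46.1% and 15.8%, with 57.2% and 8.54% of all genes. The share that rose was thus below that of all genes in both comparisons with WT, and the other shares stayed above. Folds below are relative to the authors' scaling, and the plain CPM value is given where it ends a call. The authors' deposited tables are limited to log2 folds beyond 1 either way at adjusted p below 0.01. Of the 77 channel genes, they held 9 as higher and 4 as lower in mdx against WT. Of all listed genes, 6.16% were higher and 1.59% lower there. For mdxTG against mdx they held 13 and 5 channel genes, with 3.4% and 2.0% of all listed genes. For mdxTG against WT they held 17 and 8 channel genes, with 9.43% and 3.98% of all listed genes.

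**Figure D1:**
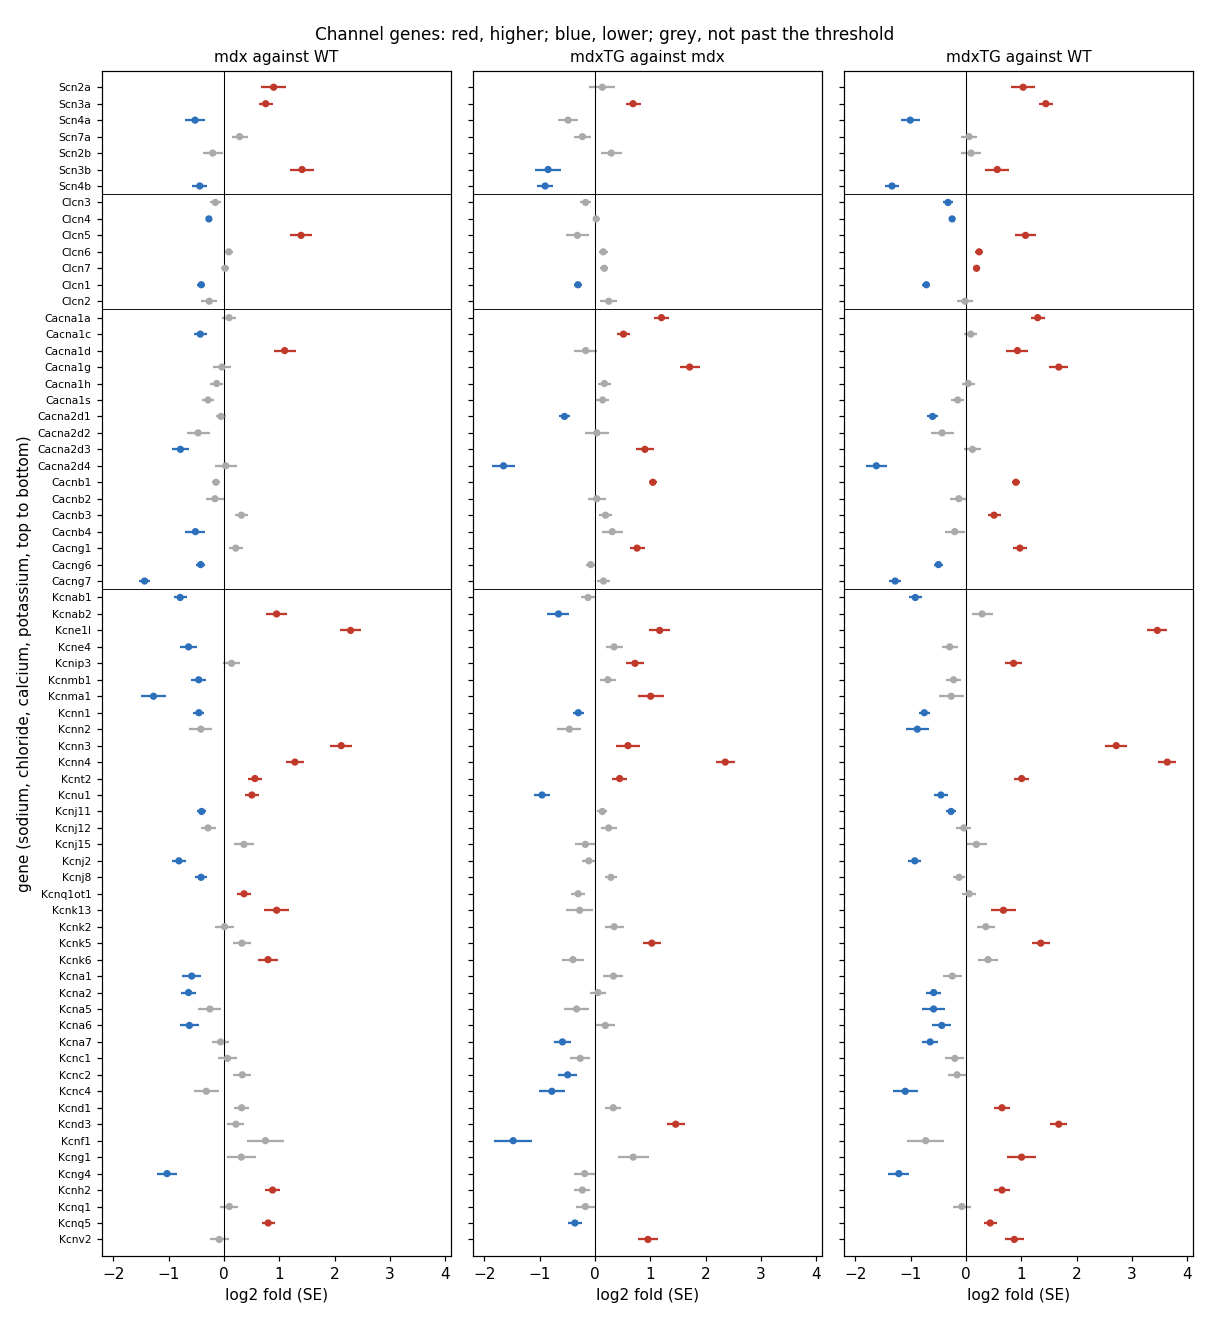
Log2 fold (x axis, point with a bar of 1 SE) of 71 of the 76 channel genes tested, 1 row a gene, in 3 panels, 1 a comparison. Red points passed the threshold upward and blue points downward. The colours of Kcnd3, Kcng1 and Kcnv2 are not given as results, because these genes reached the filter through the mdxTG libraries. Kcnn4, Kcne1l and Kcnn3 lie farthest to the right in mdxTG against WT, and Cacna2d4, Scn4b and Cacng7 farthest to the left.

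Levels of different genes are compared per length only. Cacng1, the gamma subunit of the muscle calcium channel, had 301 normalized CPM per kb of exonic sequence in mdxTG, 178 in mdx and 154 in WT. The pore Cacna1s had 143 per kb in mdxTG, 132 in mdx and 159.6 in WT, so that Cacng1 stood above it in mdxTG and mdx and close to it in WT. The sodium channel subunit Scn4b had 56.3, 105 and 144 per kb in mdxTG, mdx and WT, and its pore Scn4a 41.0, 57.8 and 84.5. The chloride channel Clcn1 had 27.4, 34.1 and 45.2 per kb in the same groups, and the potassium channel Kcna7 25.1, 38.1 and 40.0.

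**Figure D2:**
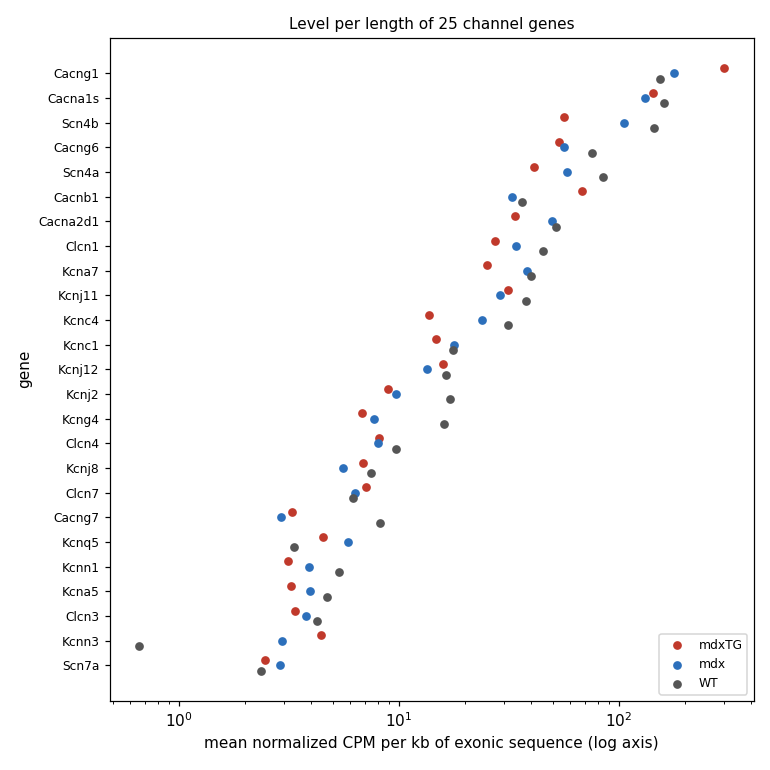
Mean normalized CPM per kb of exonic sequence (x axis, log scale) of 25 channel genes with a high level per length, 1 row a gene, in mdxTG, mdx and WT. Cacng1, Cacna1s and Scn4b are at the top of the genes drawn, and the mdxTG points of Cacng1 and Cacnb1 lie to the right of their mdx and WT points.

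Among the sodium channel genes, Scn4a and Scn4b of the adult fibre were lower in mdxTG than in WT. Their falls in mdx against WT were lost in plain CPM. Several subunits known mainly from other tissues were higher in the diseased muscles. Of 9 genes, 4 rose and 2 fell in mdx against WT, 1 rose and 4 fell in mdxTG against mdx, and 3 rose and 3 fell in mdxTG against WT. The median log2 fold was 0.28, -0.35 and 0.09. In plain CPM the counts of higher and lower genes were 5 and 0, 1 and 3, and 4 and 2. Scn4a (chromosome 11, 106318592 to 106353288, mm10), the pore of the adult muscle sodium channel, had 257, 324, 283 and 289 normalized CPM in the mdxTG libraries and 401, 331, 486 and 409.6 in the mdx libraries. WT had 602, 355, 704, 639 and 677. All mdxTG libraries lay below all mdx and all WT libraries, while mdx and WT overlapped through WT replicate 2. The log2 fold was -1.01 ± 0.17 (SE) in mdxTG against WT (limma adjusted p = 0.000218), and -0.49 ± 0.18 in mdxTG against mdx, which missed the threshold (adjusted p = 0.0609) and passed without mdx replicate 2 or WT replicate 2 (adjusted p = 0.00365 to 0.0431). In mdx against WT Scn4a fell by a narrow margin (log2 fold -0.52 ± 0.17, adjusted p = 0.0309); the call was lost without mdx replicate 1, 2 or 4 or WT replicate 1, 3, 4 or 5 (adjusted p = 0.0532 to 0.101) and in plain CPM (log2 fold -0.29, adjusted p = 0.23).

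Scn4b (chromosome 9, 45138395 to 45154152), whose promoter is printed above, encodes a beta subunit that binds the pore through its outer domain. It had 247, 301, 306 and 268 normalized CPM in the mdxTG libraries and 566, 483, 567 and 481 in the mdx libraries. WT had 565, 580.2, 901, 772 and 776. The mdxTG libraries formed a separate low group, and mdx and WT touched at WT replicate 1. Scn4b fell in mdxTG against mdx (log2 fold -0.90 ± 0.14, adjusted p = 0.000243) and in mdxTG against WT (-1.34 ± 0.13, adjusted p = 1.18e-06). In mdx against WT it fell by 0.44 ± 0.13 on the log2 scale (adjusted p = 0.0193), a call lost without mdx replicate 2 or 4 (adjusted p = 0.057 to 0.0613) and in plain CPM (log2 fold -0.20, adjusted p = 0.286). Muscle fibre markers summed to 96251 to 117505 normalized CPM in mdxTG, 127368 to 155690 in mdx and 154388 to 214708 in WT, with none at 0. Their median log2 fold was -0.42 in mdxTG against mdx and -0.82 in mdxTG against WT, and their part in the falls of Scn4a and Scn4b was not tested.

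Scn3b, a beta subunit, had 2.98, 2.67, 2.74 and 3.73 normalized CPM in the mdxTG libraries and 5.61, 9.29, 5.58 and 3.85 in the mdx libraries. WT had 2.49, 1.23, 2.60, 1.62 and 1.71. The groups did not overlap, with mdx highest and WT lowest. Its log2 fold was 1.41 ± 0.22 in mdx against WT (adjusted p = 0.000199) and -0.85 ± 0.23 in mdxTG against mdx (adjusted p = 0.0123). It was also higher in mdxTG than in WT (0.56 ± 0.22, adjusted p = 0.0395), a call lost without mdxTG replicate 1, 2, 3 or 4 or WT replicate 2, 4 or 5 (adjusted p = 0.0521 to 0.117). Markers of regenerating or denervated fibres moved alongside Scn3b: 12 of 12 rose in mdx against WT, 3 rose and 6 fell in mdxTG against mdx, and 11 rose in mdxTG against WT. Their summed level was 431 to 516 normalized CPM in mdxTG, 339 to 729 in mdx and 87.2 to 168 in WT, with no marker at 0; their part in the result was not tested.

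Scn3a and Scn2a, pores of the sodium channel known from brain, were scarce but rose. Scn3a had 4.73, 5.00, 4.33 and 5.76 normalized CPM in the mdxTG libraries and 2.60, 2.96, 2.54 and 3.47 in the mdx libraries. WT had 1.96, 1.31, 1.24, 1.67 and 1.41. The groups stood in 3 separate steps, and all comparisons passed: log2 fold 0.75 ± 0.13 in mdx against WT, 0.69 ± 0.13 in mdxTG against mdx and 1.44 ± 0.13 in mdxTG against WT (adjusted p = 0.000431, 0.00153 and 3.9e-07). Scn2a averaged 5.16 ± 2.05 normalized CPM in mdxTG, 4.57 ± 1.25 in mdx and 2.18 ± 0.487 in WT, and rose in mdx (0.90 ± 0.22, adjusted p = 0.00629) and mdxTG (1.03 ± 0.22, adjusted p = 0.00134) against WT. For Scn7a, a sodium-sensing relative, the means were 18.1 ± 3.18 normalized CPM in mdxTG, 21.2 ± 3.62 in mdx and 17.3 ± 2.71 in WT, and for the beta subunit Scn2b 2.15 ± 0.629 normalized CPM in mdxTG, 1.63 ± 0.321 in mdx and 1.98 ± 0.498 in WT. Neither passed in any comparison, though Scn7a passed in mdx against WT with replicate numbers as a block (log2 fold 0.37, adjusted p = 0.021).

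**Figure D3:**
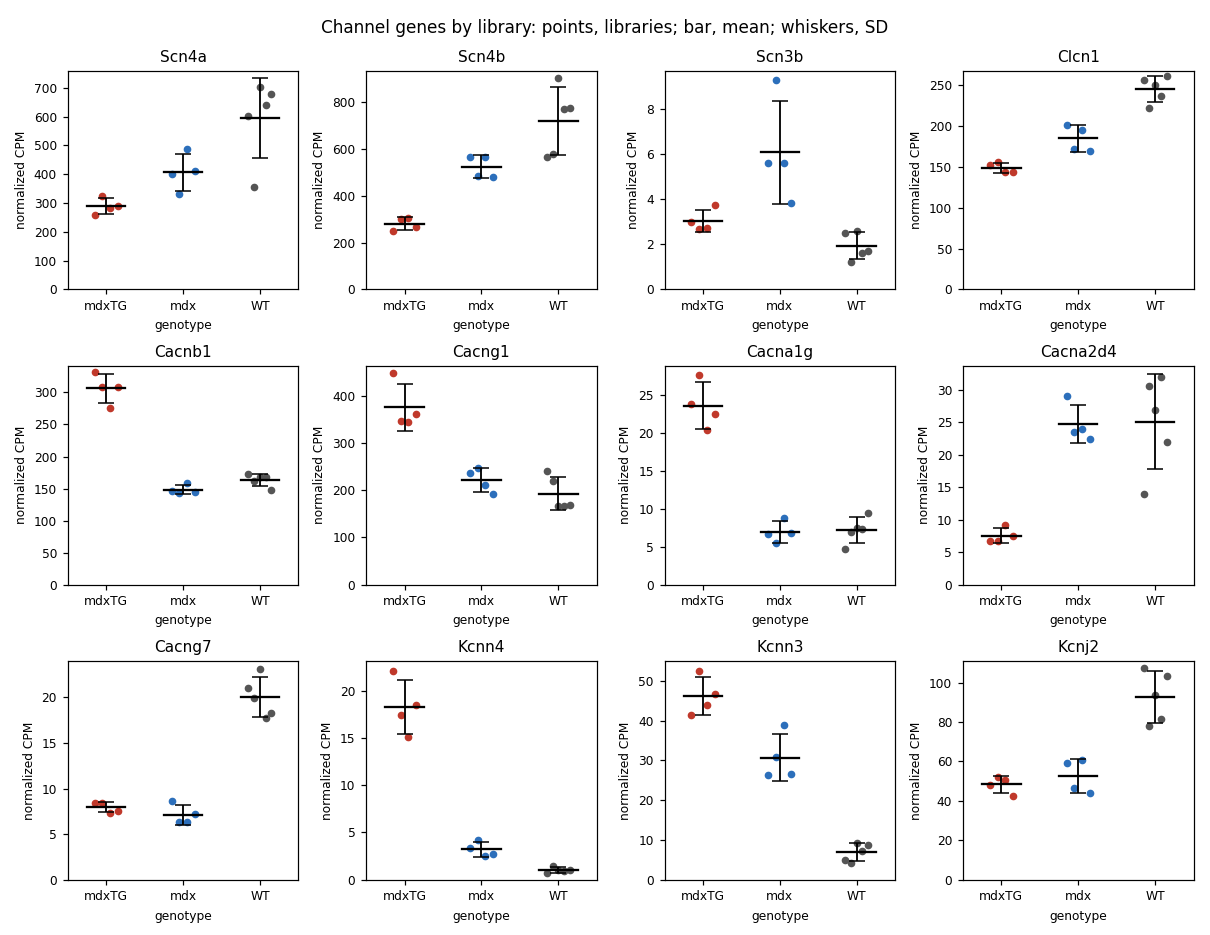
Normalized CPM (y axis, from 0) in each library for 12 channel genes, with the mean as a bar and 1 SD as whiskers, in mdxTG, mdx and WT from left to right. Scn4a, Scn4b and Clcn1 are lowest in mdxTG, Scn3b is highest in mdx, and Cacnb1, Cacng1, Cacna1g, Kcnn4 and Kcnn3 are highest in mdxTG.

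The chloride channel of the fibre membrane was lower in both diseased muscles, and the exchangers of endosomes and lysosomes went either way. Of 7 genes, 1 rose and 2 fell in mdx against WT, 0 rose and 1 fell in mdxTG against mdx, and 3 rose and 3 fell in mdxTG against WT. The median log2 fold was -0.16, 0.02 and -0.02. In plain CPM the counts of higher and lower genes were 3 and 0, 3 and 0, and 4 and 1. Clcn1 (chromosome 6, 42286685 to 42315756), which carries most of the resting conductance of the fibre and whose loss causes myotonia, had 152, 156, 144 and 144 normalized CPM in the mdxTG libraries and 202, 172, 196 and 169.7 in the mdx libraries. WT had 257, 222, 249.9, 237 and 262. Its exons overlap those of Fam131b on the opposite strand. The groups did not overlap, with mdxTG lowest and WT highest. The log2 fold was -0.41 ± 0.07 in mdx against WT, -0.31 ± 0.08 in mdxTG against mdx and -0.72 ± 0.07 in mdxTG against WT (adjusted p = 0.000723, 0.00885 and 1.83e-06). In plain CPM the first became -0.18 (adjusted p = 0.0946) and the second -0.17 (adjusted p = 0.156), so that only mdxTG against WT remained (-0.34, adjusted p = 0.00202). The fibre marker sums given with Scn4b were also lowest in mdxTG, and their part was not tested.

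Clcn5, a chloride and proton exchanger of early endosomes, had 9.48, 13.3, 9.49 and 10.3 normalized CPM in the mdxTG libraries and 10.7, 11.1, 14.7 and 17.8 in the mdx libraries. WT had 3.60, 3.71, 6.50, 4.19 and 6.53. Every mdxTG and mdx library exceeded every WT library, and mdxTG and mdx overlapped. Clcn5 rose in mdx (1.39 ± 0.20, adjusted p = 0.000103) and in mdxTG (1.07 ± 0.20, adjusted p = 0.000355) against WT. Its endosomal relatives Clcn4 and Clcn3 were lower: Clcn4 averaged 69.7 ± 2.92 normalized CPM in mdxTG, 68.7 ± 3.11 in mdx and 83.1 ± 3.73 in WT, with log2 folds of -0.27 ± 0.06 in mdx and -0.25 ± 0.06 in mdxTG against WT (adjusted p = 0.00297 and 0.00277). Clcn3 averaged 57.4 ± 5.23 normalized CPM in mdxTG, 64.7 ± 5.37 in mdx and 72.3 ± 8.18 in WT and fell in mdxTG against WT (-0.33 ± 0.10, adjusted p = 0.0102). Clcn3 also fell in mdx against WT without WT replicate 2 (adjusted p = 0.0292). In plain CPM neither gene remained lower, and the sign against WT turned in mdxTG for Clcn4 (0.12, adjusted p = 0.131) and Clcn3 (0.05, adjusted p = 0.701). The lysosomal exchangers Clcn6 and Clcn7 rose slightly in mdxTG against WT (log2 fold 0.24 ± 0.08 and 0.19 ± 0.07, adjusted p = 0.0157 and 0.0359). The Clcn7 call was lost without mdxTG replicate 1, 2 or 4 or WT replicate 1 or 4 (adjusted p = 0.055 to 0.117), and Clcn7 rose in mdxTG against mdx without mdx replicate 3 (adjusted p = 0.0463). Clcn2, a widely expressed membrane chloride channel, passed in none, with means of 4.49 ± 0.900 normalized CPM in mdxTG, 3.68 ± 0.482 in mdx and 4.55 ± 0.808 in WT.

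For the calcium channel of the transverse tubule, the voltage sensor itself did not pass in any comparison with limma and all libraries. Its partner subunits Cacnb1, Cacng1 and Cacna2d1 passed in mdxTG against mdx and against WT. Of 17 calcium channel genes tested, 1 rose and 5 fell in mdx against WT, 6 rose and 2 fell in mdxTG against mdx, and 6 rose and 4 fell in mdxTG against WT. The median log2 fold was -0.14, 0.17 and 0.04. In plain CPM the counts of higher and lower genes were 3 and 2, 6 and 2, and 9 and 2. Cacna1s (chromosome 1, 136052750 to 136119822) had 928, 975, 879 and 973 normalized CPM in the mdxTG libraries and 804, 719.7, 1099 and 834 in the mdx libraries. WT had 1090.0, 909, 1170.3, 989 and 1070.0. The groups overlapped, and the log2 folds were -0.29 ± 0.11 in mdx against WT, 0.14 ± 0.12 in mdxTG against mdx and -0.15 ± 0.11 in mdxTG against WT (adjusted p = 0.0646, 0.435 and 0.281). In mdx against WT it passed without mdx replicate 3 or WT replicate 2 (adjusted p = 0.00638 to 0.03), and with a replicate block in WT and mdx alone (log2 fold -0.28, adjusted p = 0.0359). Cacna1s also passed there narrowly with DESeq2 (log2 fold -0.28, DESeq2 adjusted p = 0.0495). Cacnb1 (chromosome 11, 98001508 to 98023034), the intracellular beta subunit that the muscle channel needs to reach the tubule, had 332, 309, 276 and 309 normalized CPM in the mdxTG libraries and 146, 143, 158 and 145 in the mdx libraries. WT had 173, 162, 168, 168 and 148. All 4 mdxTG libraries lay far above the other 9. Cacnb1 rose in mdxTG against mdx (log2 fold 1.04 ± 0.07, adjusted p = 2.02e-07) and against WT (0.90 ± 0.07, adjusted p = 1.21e-07), and mdx against WT did not pass (-0.14 ± 0.07, adjusted p = 0.133).

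Cacng1 (chromosome 11, 107703218 to 107716522), the gamma subunit of the muscle channel, had 449, 348, 346 and 362 normalized CPM in the mdxTG libraries and 237, 247, 211 and 193 in the mdx libraries. WT had 242, 219.7, 166, 167 and 169. Here too the mdxTG libraries were above all others, and mdx and WT overlapped. Cacng1 rose in mdxTG against mdx (0.76 ± 0.14, adjusted p = 0.000765) and against WT (0.97 ± 0.13, adjusted p = 1.95e-05). Cacna2d1 (chromosome 5, 15934691 to 16374511), the extracellular subunit of the same channel and the binding site of gabapentin, moved the other way. It had 440.1, 413, 425 and 399 normalized CPM in the mdxTG libraries and 653, 557, 666 and 589 in the mdx libraries. WT had 663, 519, 708, 656 and 662. Its mdxTG libraries lay below the rest, with log2 folds of -0.55 ± 0.10 against mdx and -0.61 ± 0.09 against WT (adjusted p = 0.000766 and 8.16e-05). The fall against WT was lost in plain CPM (log2 fold -0.23, adjusted p = 0.0519). Fibre markers had their lowest sums in mdxTG too, with a part that was not tested. Cacng6, a muscle-expressed relative of Cacng1, had 118, 103, 100.4 and 98.6 normalized CPM in the mdxTG libraries and 127, 111, 106 and 99.7 in the mdx libraries. WT had 162, 159.9, 146, 142 and 133. WT lay above both other groups, and Cacng6 fell in mdx (-0.42 ± 0.09, adjusted p = 0.00193) and mdxTG (-0.50 ± 0.09, adjusted p = 0.000254) against WT; neither call remained in plain CPM (adjusted p = 0.0627 and 0.172).

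Among the other pore subunits of calcium channels, 2 were several times as abundant in mdxTG. Cacna1g (chromosome 11, 94408391 to 94474198), a channel of the low-voltage T type, had 23.9, 27.7, 20.4 and 22.6 normalized CPM in the mdxTG libraries and 6.63, 5.44, 8.82 and 6.80 in the mdx libraries. WT had 4.64, 6.90, 7.496, 7.39 and 9.46. Cacna1a, the pore that serves transmitter release at motor nerve endings, had 11.2, 12.2, 13.9 and 14.05 normalized CPM in the mdxTG libraries and 4.15, 4.99, 6.74 and 5.55 in the mdx libraries. WT had 5.55, 4.77, 5.58, 4.35 and 4.48. For both genes all mdxTG libraries exceeded all others, and mdx and WT overlapped. The mean of Cacna1g in mdxTG was 3.41 times that in mdx (log2 fold 1.71 ± 0.18, adjusted p = 6.93e-06), and 3.29 times that in WT (1.68 ± 0.17, adjusted p = 1.45e-06). Cacna1a rose by 1.2004 ± 0.13 against mdx and 1.29 ± 0.13 against WT (adjusted p = 1.24e-05 and 1.02e-06). Cacna1h, the other T-type pore listed, averaged 6.80 ± 1.005 normalized CPM in mdxTG, 5.96 ± 0.585 in mdx and 6.59 ± 0.818 in WT and passed in none.

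Of the L-type pores known from other tissues, Cacna1d rose in both diseased muscles and Cacna1c fell in mdx. Cacna1d, known from sinus node and inner ear, had 1.85, 1.90, 1.36 and 2.43 normalized CPM in the mdxTG libraries and 1.2002, 2.34, 2.65 and 2.73 in the mdx libraries. WT had 0.652, 0.872, 0.631, 0.530 and 1.08. Its exons overlap those of Chdh on the opposite strand. Both diseased groups lay above WT and overlapped each other; the log2 fold was 1.10 ± 0.20 in mdx and 0.93 ± 0.20 in mdxTG against WT (adjusted p = 0.000703 and 0.00122). Cacna1c, the pore of heart and smooth muscle, averaged 10.6 ± 1.33 normalized CPM in mdxTG, 7.24 ± 0.596 in mdx and 9.98 ± 1.497 in WT. It fell in mdx against WT (-0.43 ± 0.12, adjusted p = 0.0105; lost in plain CPM, adjusted p = 0.235) and rose in mdxTG against mdx (0.51 ± 0.12, adjusted p = 0.00579). Of 8 smooth muscle and pericyte markers, 4 fell and 0 rose in mdx against WT. In mdxTG against mdx 2 of these markers rose and 0 fell, and in mdxTG against WT 2 rose and 2 fell. They summed to 718 to 809 normalized CPM in mdxTG, 604 to 806 in mdx and 706 to 975 in WT, with none at 0, and their part was not tested.

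Cacna2d4, an alpha2delta subunit known from photoreceptors, had 6.77, 6.74, 9.20 and 7.44 normalized CPM in the mdxTG libraries and 29.0, 23.5, 24.0 and 22.4 in the mdx libraries. WT had 13.9, 30.5, 26.8, 32.0 and 21.9. The mdxTG libraries were below all others, and the log2 fold was -1.65 ± 0.20 against mdx and -1.62 ± 0.19 against WT (adjusted p = 3.47e-05 and 7.81e-06), the lowest of all channel genes in both comparisons. Lrtm2 lies within its span on the opposite strand. Cacna2d3 averaged 1.62 ± 0.216 normalized CPM in mdxTG, 0.638 ± 0.166 in mdx and 1.48 ± 0.402 in WT; it fell in mdx against WT (-0.79 ± 0.15, adjusted p = 0.00119) and rose in mdxTG against mdx (0.90 ± 0.16, adjusted p = 0.000769). Cacng7, a gamma subunit known in brain as a partner of glutamate receptors, had 8.37, 8.42, 7.36 and 7.56 normalized CPM in the mdxTG libraries and 8.62, 6.33, 6.37 and 7.16 in the mdx libraries. WT had 21.1, 19.9, 23.1, 17.8 and 18.3. WT stood clear of both diseased groups, which overlapped, and Cacng7 fell in mdx (-1.43 ± 0.10, adjusted p = 4.63e-07) and mdxTG (-1.28 ± 0.10, adjusted p = 1.58e-07) against WT.

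The remaining calcium channel genes were low. Cacng4, a relative of Cacng7, was below the filter and was not tested: it had 1.42, 1.02, 0.403 and 0.789 normalized CPM in the mdxTG libraries, a sum of 188 reads, against 5 reads in all mdx and 4 reads in all WT libraries. It is in the authors' deposited tables as higher in mdxTG than in mdx (log2 fold 4.96, adjusted p = 2.91e-05) and than in WT (5.34, adjusted p = 4.01e-06). Cacnb3 averaged 5.29 ± 0.485 normalized CPM in mdxTG, 4.57 ± 0.237 in mdx and 3.61 ± 0.702 in WT and rose in mdxTG against WT (0.51 ± 0.12, adjusted p = 0.00231). It rose in mdx against WT without WT replicate 2 or 3 (adjusted p = 0.0134 to 0.0272). Cacnb4, a beta subunit known from brain, fell in mdx against WT (-0.52 ± 0.18, adjusted p = 0.0385). That call was lost with replicate numbers as a block (log2 fold -0.40, adjusted p = 0.0884), in plain CPM and without mdx replicate 1, 2 or 3 or WT replicate 2, 3 or 5 (adjusted p = 0.0615 to 0.0997). Cacnb2 and Cacna2d2 passed in none, with means at or under 1.21 normalized CPM, though Cacna2d2 fell in mdx without WT replicate 2 (adjusted p = 0.0161) and in mdxTG without WT replicate 2 (adjusted p = 0.0139) against WT.

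Potassium channel genes were the largest group, and Kcnn4 and Kcnn3, opened by calcium, were among their steepest rises. Of 43 genes, 11 rose and 14 fell in mdx against WT, 11 rose and 8 fell in mdxTG against mdx, and 14 rose and 13 fell in mdxTG against WT. The median log2 fold was 0.01, 0.13 and -0.13. In plain CPM the counts of higher and lower genes were 16 and 10, 16 and 2, and 18 and 7. Kcnn4 (chromosome 7, 24370263 to 24386690), the intermediate-conductance channel known from red cells, immune cells and fibroblasts, had 22.1, 17.4, 15.1 and 18.5 normalized CPM in the mdxTG libraries and 3.38, 4.21, 2.496 and 2.71 in the mdx libraries. WT had 0.676, 1.47, 1.05, 0.901 and 0.996. The groups stood in 3 steps without overlap. Its mean in mdxTG was 5.71 times that in mdx and 17.9 times that in WT, with log2 folds of 2.35 ± 0.17 and 3.63 ± 0.16 (adjusted p = 2.45e-07 and 4.94e-10). It also rose in mdx against WT (1.28 ± 0.16, adjusted p = 4.87e-05). The macrophage list rose in mdx and in mdxTG against WT (12 of 12 each), with 2 higher (Lgals3 and Cd68) and 4 lower in mdxTG against mdx and a median log2 fold of -0.39 there. It summed to 734 to 802 normalized CPM in mdxTG, 366 to 676 in mdx and 55.8 to 173 in WT. The fibroblast list summed to 3329 to 5011 in mdxTG, 2231 to 3782 in mdx and 957 to 2482 in WT. No marker of either list was at 0, and their part in the Kcnn4 result was not tested.

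Kcnn3 (chromosome 3, 89520164 to 89675132) belongs to the small-conductance channels; it is the channel that gives denervated fibres their sensitivity to the bee toxin apamin. It had 41.4, 52.6, 44.0 and 46.7 normalized CPM in the mdxTG libraries and 26.3, 30.9, 39.0 and 26.5 in the mdx libraries. WT had 4.93, 4.17, 9.26, 7.26 and 8.82. The groups again did not overlap: WT was lowest and mdxTG highest. It rose in mdx (2.12 ± 0.20, adjusted p = 3.62e-06) and mdxTG (2.71 ± 0.20, adjusted p = 5.74e-08) against WT. The step between mdxTG and mdx passed narrowly (0.59 ± 0.21, adjusted p = 0.0473) and was lost without mdxTG replicate 1, 2, 3 or 4 or mdx replicate 1, 2 or 4 or WT replicate 4 (adjusted p = 0.058 to 0.123). The denervation and regeneration markers described with Scn3b also separated both diseased groups from WT, and their part was not tested. The other small-conductance genes were lower: Kcnn1 had 14.6, 12.7, 15.5 and 14.5 normalized CPM in the mdxTG libraries and 19.2, 15.02, 20.4 and 16.8 in the mdx libraries. WT had 26.8, 25.6, 24.5, 24.4 and 21.2. Its WT libraries were above all others, and it fell in mdx (-0.45 ± 0.10, adjusted p = 0.00267) and mdxTG (-0.75 ± 0.10, adjusted p = 1.77e-05) against WT. The fall in mdxTG against mdx (-0.30 ± 0.10, adjusted p = 0.0417) was lost in plain CPM and without mdxTG replicate 1, 2 or 4 or mdx replicate 1, 3 or 4 or WT replicate 3 or 4 (adjusted p = 0.0527 to 0.129). Kcnn2 averaged 3.75 ± 0.704 normalized CPM in mdxTG, 5.37 ± 1.09 in mdx and 7.51 ± 2.14 in WT and fell in mdxTG against WT (-0.88 ± 0.21, adjusted p = 0.00244). Without WT replicate 1 it also fell in mdx against WT (log2 fold -0.61, adjusted p = 0.00798) and in mdxTG against mdx (log2 fold -0.46, adjusted p = 0.0338).

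Kcnma1, the large-conductance calcium-activated channel of smooth muscle and of muscle fibres, had 30.6, 42.3, 39.5 and 37.0 normalized CPM in the mdxTG libraries and 20.4, 13.5, 21.1 and 18.9 in the mdx libraries. WT had 82.5, 30.1, 42.6, 41.0 and 41.3. The mdx libraries were below all others, and WT replicate 1 stood far above the other WT libraries. Kcnma1 fell in mdx against WT (-1.27 ± 0.22, adjusted p = 0.000559) and rose in mdxTG against mdx (1.01 ± 0.23, adjusted p = 0.0052). Without WT replicate 1 the fall was -1.05 (adjusted p = 0.000142). Kcnmb1, its smooth muscle beta subunit, whose span overlaps that of Kcnip1 on the opposite strand, averaged 0.923 ± 0.0481 normalized CPM in mdxTG, 0.727 ± 0.222 in mdx and 1.17 ± 0.200 in WT and fell in mdx against WT (-0.46 ± 0.14, adjusted p = 0.018). That call was lost in plain CPM and without mdx replicate 1 or 4 (adjusted p = 0.0573 to 0.0656). Of the smooth muscle and pericyte markers given with Cacna1c, 4 of 8 fell in mdx against WT and 2 rose in mdxTG against mdx, and their part in both results was not tested. Kcnt2, a sodium-activated channel, had means of 2.85 ± 0.5004 normalized CPM in mdxTG, 1.95 ± 0.232 in mdx and 1.17 ± 0.213 in WT and rose in mdx (0.56 ± 0.13, adjusted p = 0.00428) and mdxTG (1.005 ± 0.13, adjusted p = 1.73e-05) against WT. Its rise in mdxTG against mdx (0.45 ± 0.14, adjusted p = 0.0257) was lost without mdxTG replicate 2 or 4 or mdx replicate 1, 3 or 4 (adjusted p = 0.0505 to 0.0898). Kcnu1, known from sperm, had 0.396, 0.365, 0.252 and 0.434 normalized CPM in the mdxTG libraries and 1.35, 1.18, 1.07 and 1.08 in the mdx libraries. WT had 0.821, 0.900, 0.473, 0.583 and 0.657. The groups did not overlap, with mdx highest: it rose in mdx against WT (0.50 ± 0.13, adjusted p = 0.00828) and fell in mdxTG against mdx (-0.96 ± 0.14, adjusted p = 0.000132). Its fall in mdxTG against WT (-0.45 ± 0.13, adjusted p = 0.00905) was lost in plain CPM (log2 fold -0.27, adjusted p = 0.0751).

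Among the voltage-gated potassium pores, Kcnq5 belongs to a family that carries slow subthreshold currents. It had 32.7, 36.5, 34.2 and 34.9 normalized CPM in the mdxTG libraries and 48.9, 36.6, 55.0 and 40.1 in the mdx libraries. WT had 22.7, 22.5, 26.0, 25.7 and 31.0. It was highest in mdx and lowest in WT, without overlap, though the closest mdxTG and mdx libraries nearly met. It rose in mdx (0.80 ± 0.12, adjusted p = 0.000148) and mdxTG (0.44 ± 0.12, adjusted p = 0.00624) against WT. The fall in mdxTG against mdx (-0.36 ± 0.12, adjusted p = 0.0411) was lost in plain CPM and without mdxTG replicate 1, 2, 3 or 4 or mdx replicate 1 or 3 or WT replicate 3 or 4 (adjusted p = 0.0516 to 0.127). Kcnq1, known from the heart, averaged 0.894 ± 0.158 normalized CPM in mdxTG, 1.08 ± 0.229 in mdx and 0.988 ± 0.304 in WT and passed in none.

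Kcna7 and Kcnc4, pores of the fibre membrane, were lower in mdxTG. Kcna7, a Shaker-type channel of muscle and heart, had 47.1, 52.3, 59.9 and 60.2 normalized CPM in the mdxTG libraries and 80.4, 68.0, 103 and 81.5 in the mdx libraries. WT had 85.5, 60.3, 104, 89.5 and 97.2. Its mdxTG libraries lay below all others, with log2 folds of -0.59 ± 0.16 against mdx and -0.65 ± 0.15 against WT (adjusted p = 0.0121 and 0.00215); in plain CPM the calls were lost (adjusted p = 0.0558 and 0.143). Kcnc4, a pore that inactivates fast, had 51.4, 49.5, 47.0 and 53.7 normalized CPM in the mdxTG libraries and 90.9, 82.7, 94.0 and 80.4 in the mdx libraries. WT had 52.2, 111, 156, 133 and 125. WT replicate 1 lay among the mdxTG libraries, and the other WT libraries were far above them. Kcnc4 fell in mdxTG against WT (-1.10 ± 0.23, adjusted p = 0.000951) and against mdx (-0.78 ± 0.24, adjusted p = 0.0245), the second call being lost in plain CPM and without mdxTG replicate 2 or 3 or mdx replicate 1 or 3 (adjusted p = 0.0557 to 0.0587). Without WT replicate 1 it also fell in mdx against WT (log2 fold -0.58, adjusted p = 0.000507). Kcnc1, of the same family, had 137, 155, 131 and 133 normalized CPM in the mdxTG libraries and 173, 145, 191 and 163 in the mdx libraries. WT had 104, 131, 199, 182 and 212. WT alone spanned the values of both other groups, and Kcnc1 passed in no comparison; without WT replicate 1 it fell in mdxTG against WT (log2 fold -0.36, adjusted p = 0.0366). Beside these genes, 3 of 10 fibre markers fell in mdxTG against mdx and 6 against WT, and their part was not tested.

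Kcng4, a silent subunit that works only when joined to other pores, had 21.5, 23.4, 34.1 and 23.9 normalized CPM in the mdxTG libraries and 35.7, 22.8, 27.4 and 31.0 in the mdx libraries. WT had 40.7, 58.1, 78.7, 72.7 and 54.5. Every WT library exceeded every mdxTG and mdx library. Kcng4 fell by 1.03 ± 0.19 in mdx and 1.22 ± 0.19 in mdxTG against WT on the log2 scale (adjusted p = 0.000736 and 8.12e-05). The other silent subunits were scarce and did not share this. Kcnf1 had 1.12, 1.004, 1.31 and 0.671 normalized CPM in the mdxTG libraries and 2.97, 2.29, 5.61 and 4.78 in the mdx libraries. WT had 4.52, 2.48, 2.31, 0.795 and 1.29. The mdxTG libraries lay below all mdx libraries, and WT spread over most of both. It fell in mdxTG against mdx (-1.48 ± 0.35, adjusted p = 0.00554), and without WT replicate 1 it rose in mdx against WT (log2 fold 1.000, adjusted p = 0.0159). It fell in mdxTG against WT without WT replicate 4 (adjusted p = 0.0155). Kcnv2 averaged 0.976 ± 0.225 normalized CPM in mdxTG, 0.265 ± 0.141 in mdx and 0.310 ± 0.142 in WT, with log2 folds of 0.96 ± 0.18 in mdxTG against mdx and 0.87 ± 0.17 against WT. Kcng1 averaged 1.16 ± 0.647 normalized CPM in mdxTG, 0.5003 ± 0.248 in mdx and 0.312 ± 0.219 in WT, with log2 folds of 0.69 ± 0.28 and 1.003 ± 0.27. Both reached the filter through the mdxTG libraries, so no test is given.

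Kcnd3 and Kcnd1, pores of transient A-type currents, were scarce. Kcnd3 had 1.71, 2.10, 1.16 and 1.85 normalized CPM in the mdxTG libraries and 0.175, 0.312, 0.285 and 0.417 in the mdx libraries. WT had 0.169, 0.109, 0.342, 0.132 and 0.179. All mdxTG libraries were above all others, with log2 folds of 1.46 ± 0.16 against mdx and 1.67 ± 0.15 against WT and no test, since only mdxTG libraries reached the filter; its exons overlap those of the antisense gene Kcnd3os. Kcnd1 averaged 1.69 ± 0.272 normalized CPM in mdxTG, 1.24 ± 0.134 in mdx and 0.907 ± 0.225 in WT and rose in mdxTG against WT (0.65 ± 0.14, adjusted p = 0.00129), but did not pass in mdxTG against mdx (0.33 ± 0.15, adjusted p = 0.111). Kcnh2, the rapid delayed rectifier of the heart, averaged 4.08 ± 0.477 normalized CPM in mdxTG, 4.88 ± 0.587 in mdx and 2.45 ± 0.541 in WT, and rose in mdx (0.88 ± 0.14, adjusted p = 0.000221) and mdxTG (0.65 ± 0.14, adjusted p = 0.0011) against WT.

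Kcna1, Kcna2 and Kcna6, pores known from myelinated axons, were lower in mdx than in WT. Kcna1 averaged 1.98 ± 0.298 normalized CPM in mdxTG, 1.499 ± 0.516 in mdx and 2.47 ± 0.559 in WT, Kcna2 4.31 ± 0.606 normalized CPM in mdxTG, 4.18 ± 0.950 in mdx and 6.71 ± 0.817 in WT, and Kcna6 0.759 ± 0.156 normalized CPM in mdxTG, 0.614 ± 0.209 in mdx and 1.23 ± 0.384 in WT. All fell in mdx against WT, with log2 folds of -0.58 ± 0.17, -0.64 ± 0.14 and -0.63 ± 0.17 (adjusted p = 0.0167, 0.00279 and 0.0121). With a replicate block in WT and mdx alone, Kcna1 (log2 fold -0.49, adjusted p = 0.0799) and Kcna6 (log2 fold -0.63, adjusted p = 0.0545) did not pass. Kcna6 was also lost without both WT replicates 1 and 2 (log2 fold -0.42, limma adjusted p = 0.0654). These libraries had the highest Schwann cell marker sums, 405 and 322 normalized CPM. Kcna1 was also lost in plain CPM and without mdx replicate 1 (adjusted p = 0.0554), and rose in mdxTG against mdx without mdx replicate 4 (adjusted p = 0.0395). Schwann cell and nerve markers fell beside them, 8 of 10 in mdx against WT, with sums of 135 to 189 normalized CPM in mdxTG, 99.5 to 125 in mdx and 159 to 405 in WT and none at 0; their part was not tested. Against WT, mdxTG was lower for Kcna2 (-0.59 ± 0.14, adjusted p = 0.00281; lost in plain CPM) and Kcna6 (-0.44 ± 0.17, adjusted p = 0.0446), the second being lost in plain CPM and without mdxTG replicate 1, 2 or 4 or mdx replicate 2 or 4 or WT replicate 1, 2 or 5 (adjusted p = 0.0535 to 0.116).

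Kcna5 averaged 9.21 ± 3.10 normalized CPM in mdxTG, 11.2 ± 1.85 in mdx and 13.5 ± 1.79 in WT; its fall in mdxTG against WT (-0.59 ± 0.21, adjusted p = 0.0274) was lost in plain CPM and without mdxTG replicate 1 or WT replicate 4 or 5 (adjusted p = 0.0547 to 0.0632). Kcnc2 averaged 0.626 ± 0.132 normalized CPM in mdxTG, 1.11 ± 0.358 in mdx and 0.766 ± 0.183 in WT, and its fall in mdxTG against mdx (-0.49 ± 0.17, adjusted p = 0.0418) was lost in plain CPM and without mdxTG replicate 1, 2, 3 or 4 or mdx replicate 1, 2 or 3 or WT replicate 4 (adjusted p = 0.0511 to 0.135).

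Inward rectifiers, which set the resting potential, fell or did not pass. Of 5 genes, 3 fell in mdx against WT, 0 passed in mdxTG against mdx, and 2 fell in mdxTG against WT. Kcnj2 (chromosome 11, 111066164 to 111076821), the main inward rectifier of the fibre, whose human mutations cause periodic paralysis, had 47.9, 52.0, 50.6 and 42.7 normalized CPM in the mdxTG libraries and 59.4, 46.5, 60.9 and 43.9 in the mdx libraries. WT had 108, 78.0, 93.5, 81.4 and 103. WT was above both diseased groups, which overlapped each other. Kcnj2 fell in mdx (-0.81 ± 0.12, adjusted p = 0.000154) and mdxTG (-0.93 ± 0.12, adjusted p = 1.74e-05) against WT. Kcnj11, the pore of the ATP-sensitive channel of the fibre, had 113, 127, 110.4 and 112 normalized CPM in the mdxTG libraries and 116, 92.7, 119 and 95.9 in the mdx libraries. WT had 134, 133, 145, 137 and 149. Again WT lay above the rest, with log2 folds of -0.40 ± 0.08 in mdx and -0.27 ± 0.08 in mdxTG against WT (adjusted p = 0.002 and 0.0139). Both calls were lost in plain CPM, the second with a change of sign (log2 fold 0.10, adjusted p = 0.339). Kcnj8, the ATP-sensitive pore of vessels, averaged 17.4 ± 1.37 normalized CPM in mdxTG, 14.2 ± 1.81 in mdx and 19.1 ± 1.96 in WT and fell in mdx against WT (-0.41 ± 0.10, adjusted p = 0.00582), a call lost in plain CPM (adjusted p = 0.231). It rose in mdxTG against mdx without mdx replicate 4 or WT replicate 1 (adjusted p = 0.0308 to 0.043). Kcnj12 had 39.0, 42.2, 46.0 and 46.5 normalized CPM in the mdxTG libraries and 36.1, 28.0, 41.6 and 41.8 in the mdx libraries. WT had 48.1, 32.6, 47.5, 50.5 and 46.7. Its groups overlapped, and it fell in mdx against WT without WT replicate 2 (adjusted p = 0.0125) or under the replicate block in WT and mdx alone (log2 fold -0.27, adjusted p = 0.0162). Kcnj15 had 0.771, 0.950, 1.48 and 0.986 normalized CPM in the mdxTG libraries and 0.873, 1.003, 1.47 and 1.67 in the mdx libraries. WT had 0.507, 0.709, 1.08, 1.14 and 0.876. All groups overlapped, and none of its comparisons passed.

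The K2P leak channels rose where they passed. Kcnk5, a pore sensitive to pH and volume, had 5.60, 5.95, 5.84 and 5.13 normalized CPM in the mdxTG libraries and 2.20, 2.45, 2.496 and 2.92 in the mdx libraries. WT had 1.23, 1.72, 1.89, 1.96 and 3.05. The mdxTG libraries lay above all others, with log2 folds of 1.03 ± 0.17 against mdx and 1.35 ± 0.16 against WT (adjusted p = 0.0004 and 6.92e-06). In mdx against WT it passed under the replicate block (log2 fold 0.46, adjusted p = 0.0123) and without WT replicate 5 (adjusted p = 0.0119). Kcnk6, known from lysosomes, averaged 4.74 ± 0.836 normalized CPM in mdxTG, 6.42 ± 1.30 in mdx and 3.56 ± 1.11 in WT and rose in mdx against WT (0.79 ± 0.19, adjusted p = 0.00474), and in mdxTG against WT without mdxTG replicate 1 or WT replicate 5 (adjusted p = 0.0165 to 0.0489). Kcnk13, known from microglia, averaged 0.982 ± 0.304 normalized CPM in mdxTG, 1.29 ± 0.301 in mdx and 0.461 ± 0.360 in WT and rose in mdx (0.95 ± 0.23, adjusted p = 0.00543) and mdxTG (0.67 ± 0.23, adjusted p = 0.023) against WT, the second call being lost without mdxTG replicate 2 or 4 or WT replicate 1 or 2 (adjusted p = 0.0511 to 0.0802). The macrophage list given with Kcnn4 was also higher in both diseased groups than in WT. In mdxTG against mdx its sums were higher, but only 2 of its 12 markers rose (Lgals3 and Cd68). There 4 fell, and the median log2 fold of the list was -0.39. Its part in the Kcnk13 result was not tested. Kcnk2, a mechanosensitive leak channel, averaged 3.02 ± 0.496 normalized CPM in mdxTG, 2.30 ± 0.641 in mdx and 2.25 ± 0.391 in WT and passed in none with all libraries. It rose in mdxTG against WT without mdxTG replicate 1 (adjusted p = 0.0434).

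Auxiliary potassium subunits included 1 of the steepest rises. Kcne1l, a small membrane protein that modifies Kcnq channels, had 5.77, 8.05, 9.04 and 8.17 normalized CPM in the mdxTG libraries and 2.40, 4.30, 3.39 and 2.71 in the mdx libraries. WT had 0.531, 0.218, 0.0789, 0.238 and 0.219. Its groups stood in 3 separate steps, and it rose in mdxTG against mdx (log2 fold 1.17 ± 0.19, adjusted p = 0.000439) and WT (3.46 ± 0.18, adjusted p = 2.28e-09). It also rose in mdx against WT (2.29 ± 0.18, adjusted p = 1.11e-06). Kcnab1, a cytoplasmic subunit of Shaker-type channels, had 2.10, 2.21, 2.55 and 1.87 normalized CPM in the mdxTG libraries and 2.75, 2.43, 1.95 and 2.62 in the mdx libraries. WT had 4.88, 5.07, 4.52, 4.72 and 3.68. WT was above both diseased groups, and Kcnab1 fell in mdx (-0.79 ± 0.12, adjusted p = 0.000162) and mdxTG (-0.92 ± 0.12, adjusted p = 1.55e-05) against WT. Its relative Kcnab2 averaged 1.98 ± 0.605 normalized CPM in mdxTG, 3.36 ± 0.545 in mdx and 1.53 ± 0.445 in WT and rose in mdx against WT (0.95 ± 0.19, adjusted p = 0.00145). Kcnab2 fell in mdxTG against mdx (-0.66 ± 0.20, adjusted p = 0.0228), which was lost in plain CPM and without mdxTG replicate 1 or 3 or mdx replicate 4 (adjusted p = 0.0676 to 0.0731). Kcnip3, a calcium-binding subunit of A-type channels, averaged 1.48 ± 0.335 normalized CPM in mdxTG, 0.690 ± 0.0676 in mdx and 0.594 ± 0.176 in WT, and rose in mdxTG against mdx (0.72 ± 0.16, adjusted p = 0.00392) and WT (0.86 ± 0.15, adjusted p = 0.000288). Kcne4 averaged 2.06 ± 0.381 normalized CPM in mdxTG, 1.54 ± 0.441 in mdx and 2.63 ± 0.268 in WT and fell in mdx against WT (-0.64 ± 0.15, adjusted p = 0.00378), and rose in mdxTG against mdx without mdx replicate 4 (adjusted p = 0.0319). Kcnq1ot1, a non-coding RNA antisense to Kcnq1 that silences imprinted neighbours and is no channel, averaged 6.67 ± 1.498 normalized CPM in mdxTG, 8.27 ± 1.01 in mdx and 6.29 ± 0.391 in WT. It rose in mdx against WT (0.36 ± 0.12, adjusted p = 0.0338), a call lost without mdx replicate 1 or 2 or WT replicate 1, 3 or 4 (adjusted p = 0.0586 to 0.0994), and fell in mdxTG against mdx without mdxTG replicate 2 (adjusted p = 0.0113); how strand was counted was not stated.

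**Figure D4:**
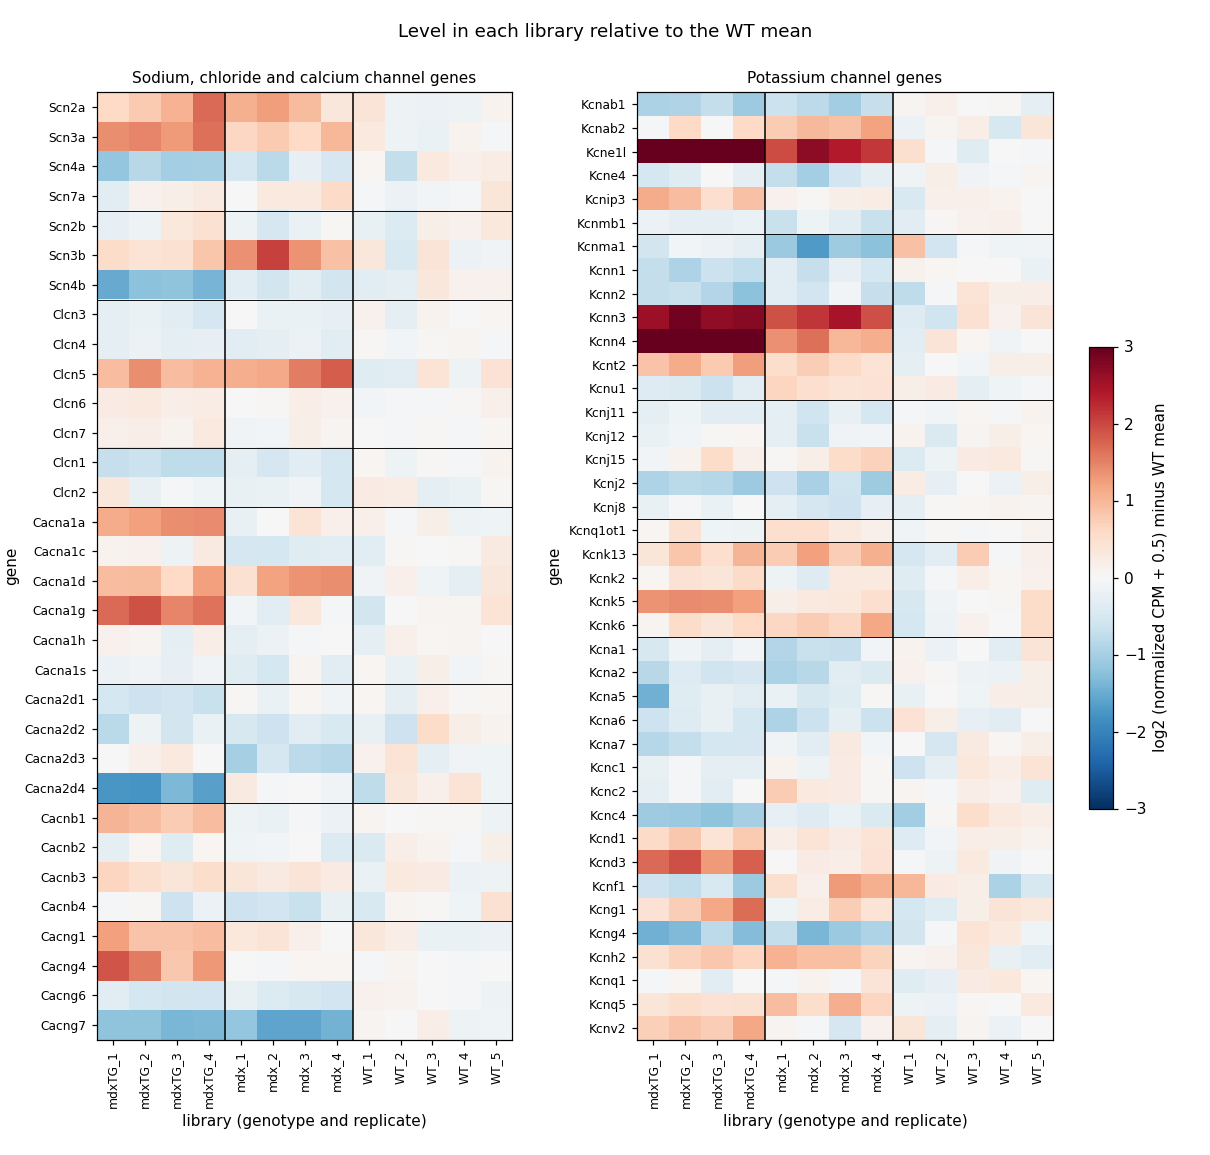
Log2 of the normalized CPM plus 0.5 minus its WT mean (colour, cut at 3 in either direction), for 72 of the 77 channel genes (rows) in the 13 libraries (columns; mdxTG, mdx and WT from left to right). Lines divide subunit classes; Kcnn4, Kcnn3 and Kcne1l are dark red in all mdxTG libraries, and Scn4b, Cacna2d4 and Cacng7 blue.

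Ratios of 2 genes within a library do not depend on the scaling factors. Cacnb1 was 0.326 ± 0.0208 of Cacna1s in mdxTG, 0.175 ± 0.0228 in mdx and 0.158 ± 0.0168 in WT (mean ± SD, n = 4, 4 and 5), with no mdxTG library overlapping the others. Cacna2d1 was 0.448 ± 0.0366 of Cacna1s in mdxTG, 0.725 ± 0.0904 in mdx and 0.613 ± 0.0332 in WT. Cacnb1 and Cacna2d1 thus stood apart from the other groups in mdxTG, in opposite directions. Kcnn3 was 3.26 ± 0.621 times Kcnn1 in mdxTG, 1.73 ± 0.312 in mdx and 0.287 ± 0.113 in WT. The 3 groups did not overlap in the Kcnn3 ratio. Cacng1 was 0.402 ± 0.0571 of Cacna1s in mdxTG, 0.265 ± 0.0673 in mdx and 0.187 ± 0.0429 in WT, with every mdxTG library above the others. Clcn1 was 0.159 ± 0.00765 of Cacna1s in mdxTG, 0.218 ± 0.0333 in mdx and 0.235 ± 0.0128 in WT, with every mdxTG library below the others. Scn4b was 0.974 ± 0.0715 of Scn4a in mdxTG, 1.30 ± 0.155 in mdx and 1.24 ± 0.254 in WT. These are ratios of reads, not of transcripts per length, and were not tested.

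**Figure D5:**
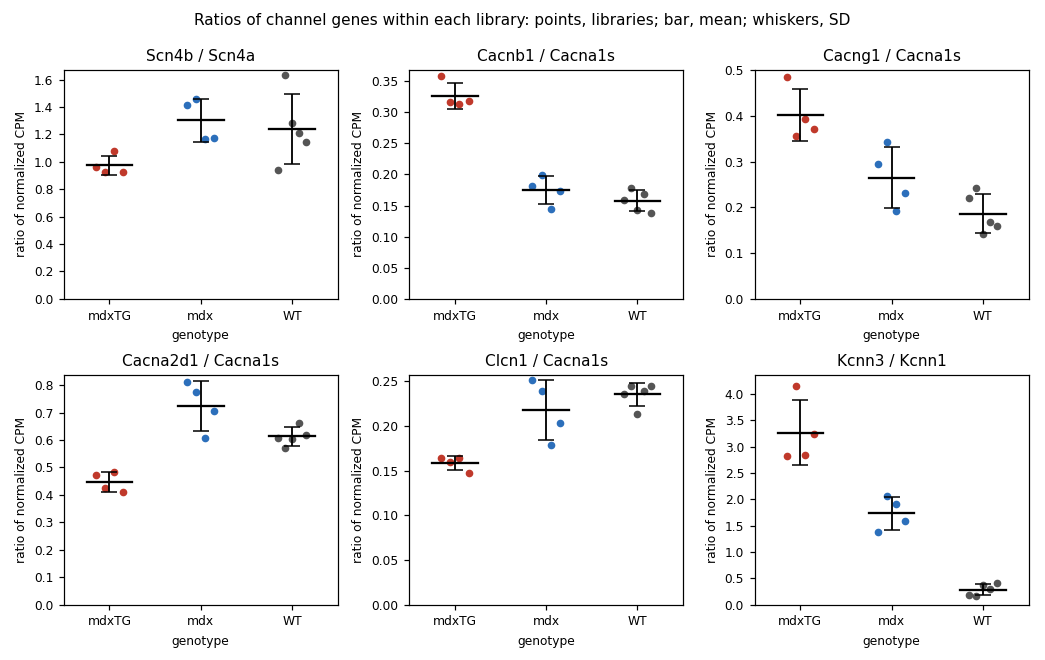
Ratio of normalized CPM of 2 channel genes within each library (y axis, from 0), with the mean as a bar and 1 SD as whiskers, in mdxTG, mdx and WT from left to right. Cacnb1 and Cacng1 over Cacna1s are highest in mdxTG, Cacna2d1 and Clcn1 over Cacna1s are lowest there, and Kcnn3 over Kcnn1 is highest in mdxTG and lowest in WT.

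A list of 69 other channels, pumps and channel partners was set beside these genes; 63 were listed and tested. In mdx against WT 17 rose and 11 fell (27.0% and 17.5%, with 18.5% and 16.1% of all genes). In mdxTG against mdx 12 rose and 14 fell (19.0% and 22.2%, with 15.4% and 12.9% of all genes). In mdxTG against WT 23 rose and 18 fell (36.5% and 28.6%, with 28.7% and 25.3% of all genes). The share that fell in mdx was close to that of all genes. Their median log2 folds were -0.02, -0.04 and -0.04. Among partners of the calcium channel, Rrad, a small GTPase that inhibits it through the beta subunit, averaged 39.5 ± 4.52 normalized CPM in mdxTG, 20.7 ± 23.7 in mdx and 1.81 ± 1.11 in WT. It rose in mdx against WT by 2.76 (adjusted p = 0.000598) on the log2 scale and in mdxTG against WT by 4.23 (adjusted p = 5.25e-06); the mdx libraries ranged from 6.01 to 56.1 normalized CPM, and the rise in mdxTG against mdx of 1.47 (adjusted p = 0.0445) kept its call in 4 of 13 fits that left out 1 library. Stac3, which couples Cacna1s to calcium release, averaged 123 ± 6.06 normalized CPM in mdxTG, 164 ± 15.7 in mdx and 223 ± 15.4 in WT, and fell throughout, with log2 folds of -0.44 (adjusted p = 0.000478) in mdx against WT, -0.41 (adjusted p = 0.0017) in mdxTG against mdx and -0.85 (adjusted p = 4.41e-07) in mdxTG against WT.

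Nedd4l, a ubiquitin ligase that removes sodium channels from the membrane, averaged 27.6 ± 1.06 normalized CPM in mdxTG, 49.4 ± 2.36 in mdx and 32.6 ± 1.90 in WT. It rose in mdx against WT by 0.59 (adjusted p = 1.22e-05) and fell by 0.83 (adjusted p = 7.14e-07) in mdxTG against mdx. It also fell by 0.23 (adjusted p = 0.00684) in mdxTG against WT, but in plain CPM the sign turned (0.14, adjusted p = 0.122). Abcc8, a sulfonylurea receptor that can pair with Kcnj11, averaged 7.41 ± 0.440 normalized CPM in mdxTG, 2.28 ± 0.4999 in mdx and 3.42 ± 1.38 in WT. It rose in mdxTG against mdx by 1.52 (adjusted p = 6.05e-05) and against WT by 1.07 (adjusted p = 0.000285). Its relative Abcc9 averaged 299 ± 22.5 normalized CPM in mdxTG, 331 ± 42.0 in mdx and 389 ± 75.6 in WT. Abcc9 did not pass in mdxTG against mdx (log2 fold -0.14, adjusted p = 0.523) or in mdx against WT (-0.21, adjusted p = 0.263). Its fall in mdxTG against WT (-0.35, adjusted p = 0.0463) was lost in plain CPM (0.02, adjusted p = 0.908). Mbnl1, a splicing factor whose loss of function leaves Clcn1 misspliced in human myotonic dystrophy, averaged 278 ± 8.30 normalized CPM in mdxTG, 389 ± 5.50 in mdx and 482 ± 46.8 in WT and fell by 0.49 (adjusted p = 0.000367) in mdxTG against mdx and fell by 0.79 (adjusted p = 7.71e-07) in mdxTG against WT. Its fall in mdx against WT, by 0.30 (adjusted p = 0.00609), was lost in plain CPM (-0.07, adjusted p = 0.481). Gene counts do not show splicing.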

How the data were processed

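Polyadenylated RNA of the tibialis anterior was sequenced from a stranded kit, per the labels' protocols. The submitters' processing notes name build mm10 and the tools edgeR, STAR and bcl2fastq 2.17. Neither they nor the labels name the counting tool, its strand setting or the annotation. The expression sheet the authors deposited holds a signal named CPM, the reads of a gene divided by an effective library size; multiplied back, 100% of them gave whole reads (tolerance 0.001). The authors' deposited tables give log2 fold changes and adjusted p-values. The authors also deposited mapped read counts and, as a fraction, the share of reads mapped in each way. 

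The test was limma 3.58.1 (R 4.3.3, empirical Bayes trend) on log2(normalized CPM + 0.5), a scale that understates changes of low genes, with all 13 libraries in 1 fit, two-sided, adjusted by Benjamini-Hochberg over 13831 of 13846 genes that had 0.5 normalized CPM in 4 libraries. edgeR 4.0.16 and DESeq2 1.42.0 were run on the recovered reads, and the tests were checked on simulated data. Other alternatives were pseudocounts, filters, plain CPM, recomputed TMM factors, fits of 2 groups, a replicate block and leaving out libraries. No replicate pair agreed within sampling noise (chi-square per degree of freedom 24.2 to 183.1). The labels do not pair libraries across genotypes, so a block on replicate numbers is an alternative fit only. Deviations of same-numbered mdx and WT libraries correlated at 0.34, 0.45, 0.33 and 0.18, which does not establish a pairing. For mdx against WT the blocked value is given where it changes a call.

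Every library is shown for a set of channels known from muscle fibres, and for the 6 largest rises and falls per comparison that passed, without overlap and with a mean of at least 1 normalized CPM. A few genes are counted with the rest but not reported singly or drawn here. Other genes shown by library were chosen after their values were seen. Members and lists were chosen with earlier results of these data known. Coordinates are GENCODE M21 (mm10), whole genes, matched by symbol for all 77; motifs and the printed promoters come from RefSeq (GRCm38.p6). The SD and SE values reflect variation among libraries, which could be technical. The floor in reads given with the library sizes covers counting error only.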

Additional observations from a re-analysis of the deposited data

Results flagged for a closer look

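In 8 of 214 groups of channel gene values, 1 library lay farther from the rest of its group than Dixon's 95% limit; chance flags about 1 in 20 groups. Kcnma1 had 82.5 normalized CPM in WT replicate 1, above the other WT libraries, and Kcnj8 had 15.7 and Kcnip3 0.290 there, below them. WT replicate 2 was the low library for Cacna2d1 (519), Clcn3 (58.3) and Kcnj12 (32.6). WT replicate 5 was the high library for Scn7a (22.1). In mdxTG, Cacng1 had 449 in replicate 1, above the rest of its group.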

How the results depend on the processing

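Plain CPM moved the counts most, since it raises the median of all genes: 27 channel genes were higher and 12 lower in mdx against WT, 7 were lower in mdxTG against mdx, and 12 were lower in mdxTG against WT, against 17, 23, 15 and 23. Kcnj11 then turned in mdxTG against WT (log2 fold 0.10, adjusted p = 0.339). Leaving out 1 library gave 16 to 18 higher and 19 to 26 lower genes in mdx against WT, 14 to 19 and 11 to 16 in mdxTG against mdx, and 22 to 26 and 21 to 24 in mdxTG against WT. With the replicate block, 19 were higher and 22 lower in mdx against WT. Same-numbered libraries correlated at 0.41, -0.36, -0.19 and 0.32 between mdxTG and mdx, and at 0.24, -0.47, -0.17 and 0.10 between mdxTG and WT. In these comparisons the block gave 19 higher and 16 lower, and 26 and 23. Other settings, edgeR and DESeq2 included, kept every count within 1.5 times. Over the genes named by rule, 2293 of 2386 alternative values kept direction and side of the threshold, 56 lost and 36 gained a call, and 1 reversed. Genes near 1 normalized CPM rest on few reads.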

Other observations

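Among channels and pumps outside the 4 families, several calcium entry genes rose in both diseased muscles. Orai1, the pore of store-operated calcium entry, averaged 65.1 ± 1.93 normalized CPM in mdxTG, 64.9 ± 5.10 in mdx and 31.5 ± 3.65 in WT (SD, n = 4, 4 and 5), and rose by 1.03 (adjusted p = 1.34e-06) in mdx and 1.04 (adjusted p = 1.71e-07) in mdxTG against WT on the log2 scale. Orai2 averaged 7.35 ± 1.197 normalized CPM in mdxTG, 4.88 ± 0.856 in mdx and 1.51 ± 0.543 in WT and rose by 1.45 (adjusted p = 7.17e-05) and 2.00 (adjusted p = 1.06e-06). Orai3 fell by 0.23 (adjusted p = 0.0428) in mdx against WT, a call lost in plain CPM (-0.002, adjusted p = 0.984). The ATP-gated channels P2rx4 and P2rx5 rose too, P2rx4 by 1.08 (adjusted p = 2.02e-05) in mdx and 0.95 (adjusted p = 1.71e-05) in mdxTG against WT, and P2rx5 by 0.51 (adjusted p = 0.00129) and 1.37 (adjusted p = 5.74e-08), with a further 0.86 (adjusted p = 3.47e-05) in mdxTG against mdx. The calcium-permeable channel Trpv2 rose by 1.05 (adjusted p = 4.1e-05) in mdx and 0.60 (adjusted p = 0.00143) in mdxTG against WT. It fell by 0.45 (adjusted p = 0.0262) in mdxTG against mdx, a call lost in plain CPM (-0.32, adjusted p = 0.121) and kept in 8 of 13 fits that left out 1 library. The macrophage markers also rose in mdx and mdxTG against WT (12 of 12 each). In mdxTG against mdx Lgals3 and Cd68 rose and 4 of the 12 fell, with sums of 734 to 802 normalized CPM in mdxTG, 366 to 676 in mdx and 55.8 to 173 in WT; their part was not tested.

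Ano5, a membrane protein mutated in a human limb-girdle dystrophy, averaged 178 ± 15.7 normalized CPM in mdxTG, 356 ± 16.3 in mdx and 315 ± 50.9 in WT, and fell by 1.004 (adjusted p = 2.51e-05) in mdxTG against mdx and fell by 0.81 (adjusted p = 3.6e-05) in mdxTG against WT. The sodium pump subunit Atp1b4 rose by 1.14 (adjusted p = 5.84e-05) in mdxTG against WT.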
